A study of Mus musculus with 6 samples.

Results

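The genes described here are Pigr, which encodes the polymeric immunoglobulin receptor, 6 membrane mucins (Muc1, Muc3, Muc4, Muc13, Muc16 and Muc20) and Dmbt1, which encodes a secreted mucosal defence protein. They were chosen by name, as probe sets whose single gene symbol in the platform annotation is 1 of these 8 symbols, out of 19938 genes measured through such probe sets. Each of the 8 genes had 1 probe set, so a rule that keeps a gene's brightest probe set had nothing to choose between. The group was drawn up with earlier results of these data in view, the lower level of Pigr among them, so the genotype differences of its members are given as a description and nothing is read from how many of them there are.

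Gene expression was measured with Affymetrix arrays in dissected prostates of 4-week-old mice, 3 AR3 transgenic mice and 3 wild-type littermates, each mouse on an array of its own. AR3 is a splice variant of the androgen receptor that lacks the hormone-binding domain and can act without androgen. The promoter that drives the transgene is not given in the sources used here, and the transgene's own signal was not analysed here. Values are intensities on a linear scale, with medians between 94.5 and 110.8 on the 6 arrays. No detection calls were used. The 95th percentile of 1035 probe sets of olfactory receptor genes, which a prostate is not known to use as smell receptors, served as a background scale and lay between 66.9 and 91.9 on the 6 arrays.

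The markers of the labelled tissue were present. Probasin (Pbsn), an androgen-regulated prostate secretory gene, was at 8078 ± 216 in transgenic and 9343 ± 366 in wild-type prostates (SD, n = 3 each), and all 10 measured luminal epithelial markers lay above the background scale on every array. Seminal vesicle genes differed between mice of 1 genotype. Svs2, a major seminal vesicle protein gene, was at 50.6, 24.6 and 469.7 in transgenic mice 1, 2 and 3, against 1769, 20.4 and 25.6 in wild-type mice 1, 2 and 3.

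The polymeric immunoglobulin receptor sits on the basal side of secretory epithelial cells, binds dimeric IgA and pentameric IgM made by plasma cells, and carries them through the cell into the lumen. There its outer part is cut off and stays with the antibody as secretory component. Membrane mucins are long, heavily O-glycosylated proteins anchored in the apical membrane that form a barrier over the epithelium, and Dmbt1 is a secreted scavenger receptor cysteine-rich protein that binds bacteria and mucosal proteins. The receptor gene responds in many epithelia to inflammatory cytokines, and in the rat lacrimal gland to androgen.

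The stretch before the Pigr start is shown because its log2 change was the largest of the 8 genes, and that before Muc3 because it differed the other way. Both are 250 bases long, from RefSeq promoter windows of build GRCm38.p6. The Pigr stretch ends 1 base before the gene's annotated start, and the Muc3 stretch takes in the outermost 2 bases of the gene's annotated span. The Pigr window is at chr1:130826434-130826683 on the plus strand and the Muc3 window at chr5:137166047-137166296 on the minus strand. Capitals mark matches to the motifs named after them.
Pigr: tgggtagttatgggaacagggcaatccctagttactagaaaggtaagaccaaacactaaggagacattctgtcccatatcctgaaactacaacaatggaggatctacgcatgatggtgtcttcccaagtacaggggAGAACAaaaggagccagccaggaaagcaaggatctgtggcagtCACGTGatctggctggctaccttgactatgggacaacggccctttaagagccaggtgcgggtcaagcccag
Muc3: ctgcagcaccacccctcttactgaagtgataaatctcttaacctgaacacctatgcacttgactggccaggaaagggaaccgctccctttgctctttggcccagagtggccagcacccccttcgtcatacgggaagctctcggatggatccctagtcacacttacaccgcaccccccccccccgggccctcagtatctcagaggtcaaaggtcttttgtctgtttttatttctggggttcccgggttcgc

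Both strands were searched for AGAACA, the half-site bound by androgen and glucocorticoid receptors, CACGTG, an E-box, TTCNNNGAA, the form bound by STAT factors, the core of interferon-stimulated elements and the kappaB consensus. The Pigr window held AGAACA once, 114 to 109 bases before the start, and CACGTG once, 71 to 66 bases before the start, without overlap, and none of the other 3. AGAACA was found in 16.1% of 32851 windows of the same length, CACGTG in 6.02% and both together in 0.791%. The Muc3 window held none of the 5. Windows were found for 7 of the 8 genes, all but Dmbt1. Among the other mucins, AGAACA occurred once before Muc16, on the minus strand, and TTCNNNGAA once in 1 of 2 windows of Muc13; TTCNNNGAA was found in 7.02% of all windows. A match of letters shows no binding, and a window without one says only that these letters are not in it.

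The comparison asks which of these genes differ in level with the AR3 genotype in 4-week prostates. Pigr was lower and Dmbt1 higher in transgenic prostates, Muc3 was also higher but with signals under the background scale in both genotypes, and the other 5 mucins did not pass the threshold. In limma fitted to log2(intensity + 16), with p-values adjusted over the whole table of 28944 probe sets and an adjusted p of 0.05 as threshold, 3 of the 8 genes were past it, 2 higher and 1 lower. Over all probe sets 1.47% were past it, 1.05% higher and 0.415% lower, and over genes with 1 probe set each 1.64% were, 1.18% higher and 0.456% lower. At an unadjusted p under 0.05 the share of all genes was 12.2%, with 6.91% higher and 5.27% lower. After median centring of the arrays the 305 higher and 120 lower probe sets became 314 and 264. In 3 of the 8 genes the 3 transgenic and the 3 wild-type values did not overlap, as in 18.8% of all probe sets. The median log2 change of the 8 genes was 0.07, beside 0.01 over all genes.

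**Figure D1:**
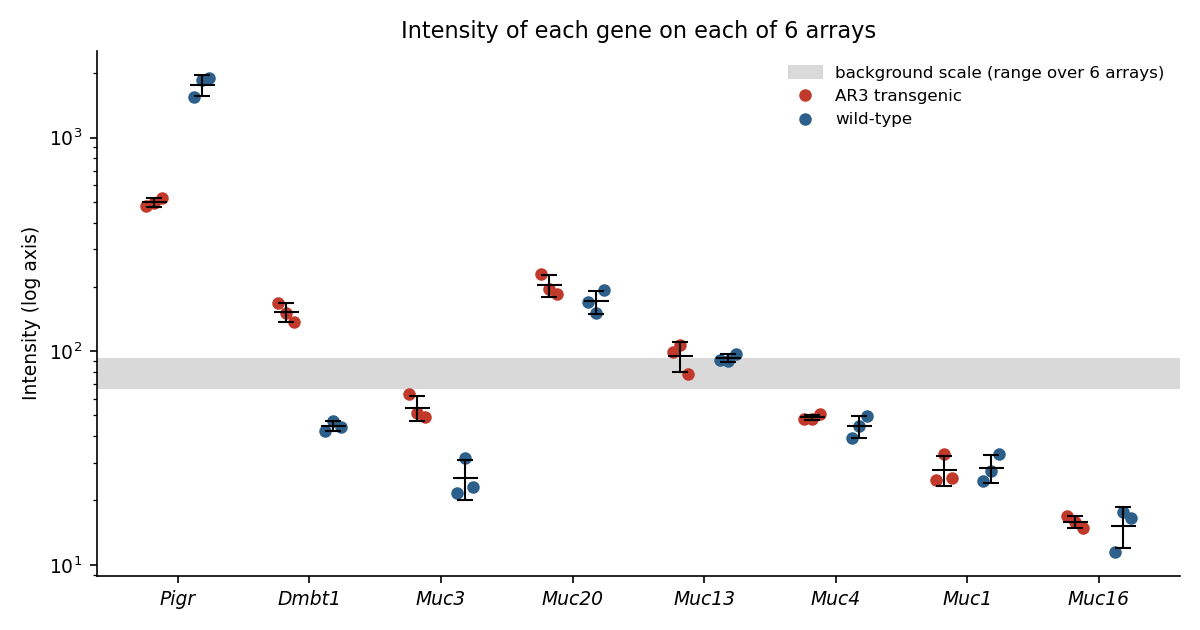
Intensity of the 8 genes on a log axis, with a point for each mouse, AR3 transgenic left and wild-type right, and bars for mean and SD (n = 3 each); the grey band spans the background scale, 66.9 to 91.9. Pigr is the brightest in both genotypes and lower in transgenic mice, Dmbt1 crosses the band, and Muc3, Muc4, Muc1 and Muc16 lie under it on all arrays.

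Pigr, on chromosome 1 from 130826684 to 130852249 (GRCm38.p6), had intensities of 476, 495 and 521 in transgenic mice 1, 2 and 3, against 1540.3, 1864 and 1906 in wild-type mice 1, 2 and 3. Every transgenic value was below every wild-type value, with a wide gap and a narrower spread among the transgenic mice. The means were 497.5 ± 22.6 in transgenic and 1770.2 ± 200.2 in wild-type prostates (SD, n = 3 each), so the wild-type mean was 3.56 times the transgenic one. On the log2(intensity + 16) scale the difference was −1.79 ± 0.10 (SE), with a 95% interval of −2.03 to −1.56. It lay between −1.89 and −1.70 over 15 other settings and between −1.89 and −1.74 with 1 array left out. Pigr stayed well above the background scale on all 6 arrays, and its mean over them was above that of 95.5% of genes.

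In whole prostates, fewer cells of a type and less RNA per cell cannot be told apart. The 14 general epithelial markers summed to 24052 to 25259 in transgenic and 20955 to 23244 in wild-type mice, without overlap. Of these markers the keratin Krt7 rose (1.06 ± 0.09, adjusted p 0.00092) and the other 13 were not past the threshold. Of the luminal and basal markers, the peptidase gene Dpp4 (0.65 ± 0.10, adjusted p 0.0192) and the junction protein gene Perp (0.48 ± 0.09, adjusted p 0.0441) were also past it. With single arrays left out, Dpp4 kept its call only without wild-type replicate 1, with adjusted p of 0.0507 to 0.118 in the other 5 fits, and Perp lost its call in all 6, with adjusted p of 0.0681 to 0.23. Epcam, an adhesion protein of epithelial cells, was at 4068 ± 120 in transgenic and 3554 ± 187 in wild-type prostates, a log2 change of 0.19 ± 0.08 at an adjusted p of 0.365. Krt8, a luminal keratin, was at 2400.1 ± 97.3 and 2174 ± 134 in the same order of genotypes (adjusted p 0.532). The 6 urothelial markers summed to 2437 to 2965 in transgenic and 3106 to 3835 in wild-type mice, with 0 of 6 past the threshold in limma and 1 at an unadjusted p under 0.05. That 1 was Upk1a, at 1416 ± 156 in transgenic and 2287 ± 390 in wild-type prostates (adjusted p 0.0826), a gap about as large as that of the sums. Upk1b was at 881 ± 98.3 in transgenic and 873 ± 88.8 in wild-type prostates. The part of epithelial or urothelial cell content in the lower Pigr level was not tested.

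The genes whose pattern over the 6 arrays lay nearest to that of Pigr were Crabp1, Caln1, Ptgdr, Pik3c2g and Timp4, by the root mean square difference of log2 profiles after each was centred on its own mean. The retinoic acid binding protein gene Crabp1 was nearest, at 0.11 log2 units. Its intensities were 187, 191 and 178 in transgenic mice, against 608, 767 and 639 in wild-type mice. Caln1, a calcium-binding protein gene, lay at 0.17, the prostaglandin D2 receptor gene Ptgdr at 0.18, the lipid kinase gene Pik3c2g at 0.22 and the metalloproteinase inhibitor gene Timp4 at 0.23. All 5 were lower in transgenic mice, which follows from their choice by nearness to Pigr, with log2 changes from −1.76 for Crabp1 to −1.44 for Pik3c2g. Caln1 was under the background scale in every transgenic mouse, and its change ran from −1.87 to −0.91 over the settings. Ptgdr and Pik3c2g were each above that scale on 5 of 6 arrays. Among the 8 genes, Muc1 was nearest to Pigr, at 0.89 and rank 7667 of 19937, and Dmbt1 farthest, at 1.64 and rank 19874.

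**Figure D2:**
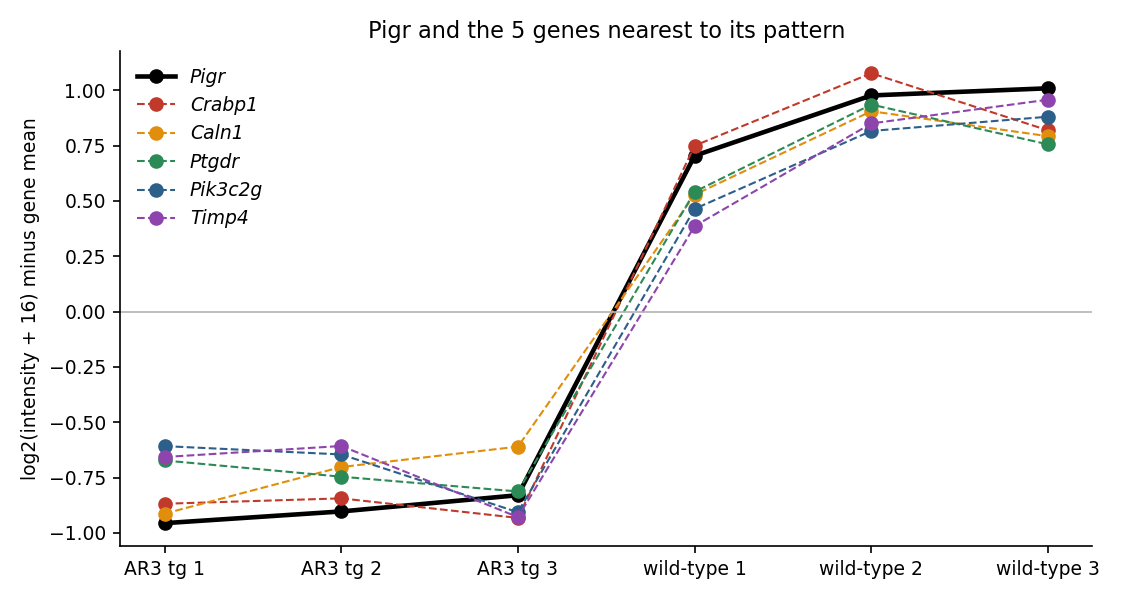
Profiles of Pigr (solid line) and the 5 genes nearest to it, as log2(intensity + 16) minus each gene's mean over the 6 arrays, with AR3 transgenic mice 1 to 3 left and wild-type mice 1 to 3 right. All 6 genes are below 0 in every transgenic mouse and above 0 in every wild-type mouse, which follows from the choice by nearness to Pigr. Crabp1 runs within 0.11 log2 units of Pigr on average.

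Dmbt1, on chromosome 7 from 131032057 to 131121628, had intensities of 168, 150.2 and 138 in transgenic mice 1, 2 and 3, against 42.2, 47.1 and 44.4 in wild-type mice 1, 2 and 3. The genotypes did not overlap, and all 3 transgenic values lay above the background scale of their own array while all 3 wild-type values lay below it. The means were 152 ± 15.3 in transgenic and 44.6 ± 2.44 in wild-type prostates (SD, n = 3 each). In limma the log2 change was 1.47 ± 0.09 (SE), with an adjusted p of 1.45e-04 and a 95% interval of 1.26 to 1.68. Because the wild-type signal was under the background scale, the size depends on the constant added: it was 1.74 with 1 and 0.99 with 64. With each wild-type array's background scale in place of its dimmer signal, Dmbt1 was at least 1.78-fold higher in transgenic prostates. It was past the threshold in all 15 other settings, with adjusted p from 6.87e-06 to 0.00359.

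Muc3, on chromosome 5 from 137134924 to 137166048, encodes a membrane mucin best known from intestinal epithelium. Its intensities were 62.9, 51.2 and 49.1 in transgenic mice, against 21.7, 31.7 and 23.2 in wild-type mice. The genotypes did not overlap, but all 6 values were under the background scale, so no fold is given. The fitted log2 difference was 0.76 ± 0.12 (SE), with an adjusted p of 0.022 in limma. That call was lost when any 1 array other than wild-type replicate 2 was left out, at adjusted p of 0.0849, 0.0976 and 0.0742 without transgenic replicates 1, 2 and 3, and of 0.0513 and 0.0654 without wild-type replicates 1 and 3.

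Muc20, a small membrane mucin known in human cells to bind the MET receptor, was the mucin with the highest signal among the 6. It lies on chromosome 16 from 32777419 to 32797435 and overlaps the end of Muc4 by 4973 bases. Its intensities were 229, 196 and 184 in transgenic mice, against 169.8, 151 and 193 in wild-type mice. The values overlapped, with wild-type mouse 3 above transgenic mouse 3. The log2 change was 0.23 ± 0.11 (SE) with an adjusted p of 0.483 in limma, and the 95% interval of −0.04 to 0.49 leaves room for a rise of that upper size. All 6 arrays were above the background scale for Muc20.

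Muc13, a membrane mucin of gut and airway epithelium on chromosome 16 from 33794037 to 33819929, lay at the edge of the background scale. Its intensities were 99.5, 107 and 78.6 in transgenic mice, against 91.3, 89.8 and 97.2 in wild-type mice, and 5 of the 6 were above the scale of their own array. The genotypes overlapped, with transgenic mouse 3 the lowest of all 6. The log2 difference was 0.02 ± 0.11 (SE), with an interval of −0.23 to 0.28 and a sign that turned with quantile normalization and with median centring.

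The remaining 3 membrane mucins were under the background scale on all 6 arrays, and in none was a difference past the threshold. Muc4, which binds the ERBB2 receptor in rat and human cells, had intensities of 48.0, 48.2 and 50.6 in transgenic mice, against 39.1, 44.7 and 49.5 in wild-type mice. Muc1, the widely expressed epithelial membrane mucin on chromosome 3, had 25.01, 32.9 and 25.4 in transgenic mice, against 24.6, 27.4 and 33.0 in wild-type mice. Muc16, on chromosome 9, whose human counterpart carries the CA125 antigen, had 16.9, 15.8 and 14.9 in transgenic mice, against 11.5, 17.7 and 16.6 in wild-type mice. The genotypes overlapped in all 3 genes. The 95% intervals of the log2 difference were −0.09 to 0.31 for Muc4, −0.27 to 0.23 for Muc1 and −0.19 to 0.26 for Muc16. The signs for Muc1 and Muc16 turned under another scaling, quantile normalization for Muc1 and median centring for Muc16.

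**Figure D3:**
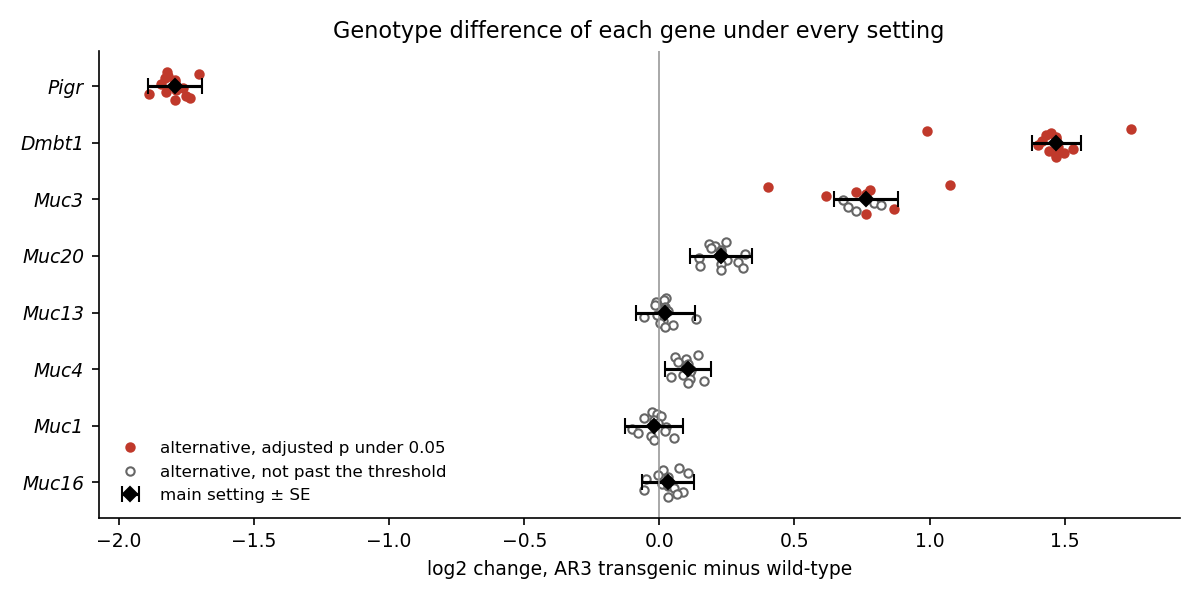
Log2 change of each gene, AR3 transgenic minus wild-type, in the main setting (diamond, with SE) and in every other setting (circles, filled where the adjusted p was under 0.05). Pigr and Dmbt1 are past the threshold in all settings, Muc3 in 8 of 14 others, and the other 5 in none; the outlying points of Dmbt1 at 0.99 and 1.74 are the added constants of 64 and 1.

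No measured gene next to Pigr was past the threshold, but a fall could not be seen in those under the background scale. Fcamr, a receptor for IgA and IgM whose gene ends 781 bases before Pigr begins, was at 70.4 ± 1.92 in transgenic and 76.0 ± 6.72 in wild-type prostates (SD, n = 3 each, adjusted p 0.723 in limma). Fcmr, the IgM Fc receptor gene on the other side, was at 102.6 ± 2.83 in transgenic and 93.8 ± 18.9 in wild-type prostates (adjusted p 0.745). Within 300 kb on either side of Pigr, 0 of 14 other measured genes were past the threshold and their log2 changes ran from −0.15 to 0.22. Fcamr was above the background scale in 0 transgenic and 2 wild-type mice. Zp3r, C4bp, C4bp-ps1, Il24, Il20, Il19 and Il10 were under it on all arrays. Around Dmbt1, 0 of 9 were past the threshold, with adjusted p of 0.92 for the serine protease gene Htra1 and 0.559 for 4933402N03Rik, its measured neighbours. The signal of 4933402N03Rik was under the background scale on all arrays.

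Around Muc3, 2 of 15 other measured genes were past the threshold. Trim56, the nearest measured gene on 1 side, had a log2 change of 0.06 ± 0.09 (adjusted p 0.855). Ache, the acetylcholinesterase gene and the nearest measured gene on the other side, was at 310.3 ± 36.2 in transgenic and 33.2 ± 1.06 in wild-type prostates. Its log2 change was 2.72 ± 0.10 at an adjusted p of 7.59e-06 in limma. Every wild-type Ache value was under the background scale, and over the settings the change ran from 1.94 to 3.18. Next to Ache, Ufsp1, a protease gene singled out after its values were seen, was at 407.5 ± 59.9 in transgenic and 96.9 ± 7.20 in wild-type prostates. Its log2 change was 1.90 ± 0.12 at an adjusted p of 1.52e-04. Muc3 and Ache are 122199 bases apart.

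**Figure D4:**
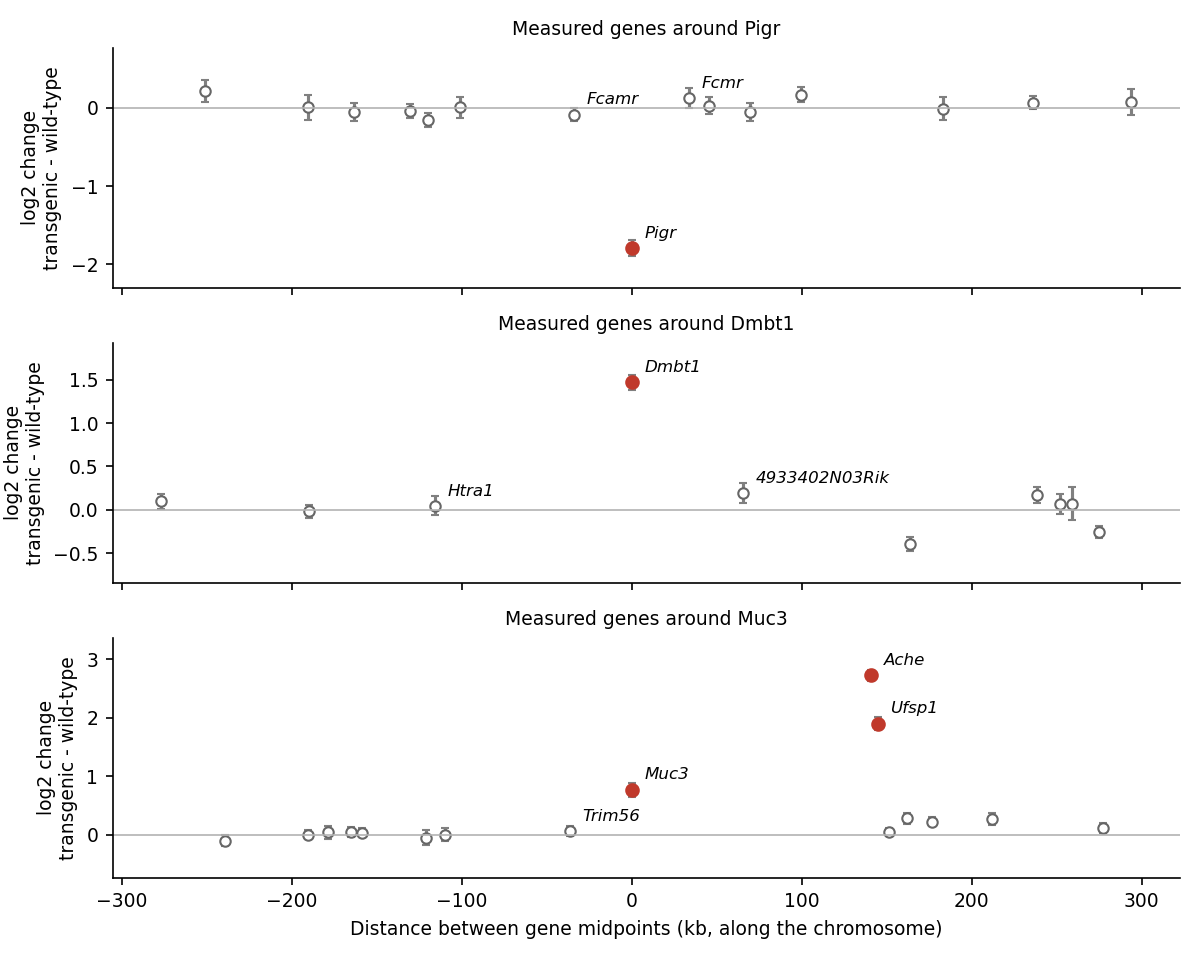
Log2 change (AR3 transgenic minus wild-type, with SE) of measured genes within 300 kb of Pigr, Dmbt1 and Muc3, by distance between gene midpoints; filled circles have an adjusted p under 0.05. No gene near Pigr or Dmbt1 is past the threshold, while Ache and Ufsp1 near Muc3 are higher in transgenic prostates.

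Related genes were followed in 9 lists, drawn from general knowledge, of polymeric immunoglobulin transport, signals that act on Pigr, immunoglobulin and plasma cells, other mucins, O-glycosylation, mucous cells, relatives of Dmbt1, partners of membrane mucins and mucosal defence. Of their 197 measured genes, 4 were higher and 0 lower at an adjusted p of 0.05 in limma, which is 2.03%, beside 1.64% of all 19938 genes. That count is near the background share.

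The 13 measured genes of polymeric immunoglobulin transport had 0 past the threshold and a median log2 change of 0.04. At an unadjusted p under 0.05 in limma, 3 of the 13 were lower and 1 higher in transgenic mice. Over all genes the share at that cut was 12.2%, and no test over the list was run. Small GTPase genes of vesicle traffic were nearest to the threshold. Rab3d had intensities of 589, 608 and 598 in transgenic mice, against 752, 804 and 822 in wild-type mice, a log2 change of −0.40 ± 0.07 at an adjusted p of 0.0509. Rab27a had 176, 196 and 143 in transgenic mice, against 245, 319 and 313 in wild-type mice, a log2 change of −0.72 ± 0.14 at an adjusted p of 0.0629. Neither pair of groups overlapped, and each gene was past the threshold in 7 of 15 other settings. Among 25 measured genes of the signals that act on Pigr, such as cytokines, their receptors and NF-kappaB, 0 were past the threshold and 2 had an unadjusted p under 0.05. The smallest p belonged to the NF-kappaB inhibitor gene Nfkbia (0.21 ± 0.07, adjusted p 0.296) and the double-stranded RNA receptor gene Tlr3 (0.35 ± 0.14, adjusted p 0.382).

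The cargo side gave little signal outside the IgM heavy chain gene Ighm. Of 15 measured immunoglobulin and plasma cell genes, 2 lay above the background scale on every array, Ighm and Sdc1, which epithelial cells also use. Ighm was at 187.5 ± 15.2 in transgenic and 163.0 ± 43.4 in wild-type prostates (adjusted p 0.67 in limma). Of the 15 genes 0 were past the threshold, and their median log2 change was 0.03. The 2 at an unadjusted p under 0.05 were Sdc1 (0.25 ± 0.10, adjusted p 0.379) and the B cell receptor gene Cd79b (0.22 ± 0.09, adjusted p 0.382). Cd79b was above the background scale on 3 of 6 arrays. Jchain, which joins polymeric immunoglobulins, was at 21.1 ± 5.36 in transgenic and 20.1 ± 4.30 in wild-type prostates, and Igha, the IgA heavy chain gene, at 50.3 ± 2.18 and 46.3 ± 10.5 in the same genotypes. Both were under the background scale on all 6 arrays. The 6 markers of B and plasma cells summed to 249 to 334 in transgenic and 270.1 to 296 in wild-type mice, and 0 of the 6 were above the scale on every array.

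Of 15 other mucin and mucin-like genes, 0 were past the threshold in limma and 2 had an unadjusted p under 0.05, both with lower values in transgenic mice. These were the endolysosomal sialomucin gene Cd164, at 2603 ± 68.5 in transgenic and 2974 ± 25.1 in wild-type prostates (adjusted p 0.327), and Parm1, an androgen-regulated mucin-like gene in rat prostate, with a log2 change of −0.24 ± 0.08 (adjusted p 0.296). Of the gel-forming mucins Muc2, Muc5ac, Muc5b and Muc6, singled out here for their role, Muc5ac alone was above the background scale on all arrays, at 141 ± 3.36 in transgenic and 143 ± 30.4 in wild-type prostates.

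The O-glycosylation list held 3 of the 4 calls, with 41 genes measured, 3 higher, 0 lower and a median log2 change of 0.04. At an unadjusted p under 0.05 in limma, 6 of the 41 were higher and 2 lower. Over all genes 6.91% were higher and 5.27% lower at that cut, and the difference in share was not tested. Fut4, a fucosyltransferase that makes the Lewis x sugar, had intensities of 150.4, 156 and 172 in transgenic mice, against 76.1, 68.9 and 65.1 in wild-type mice. Its log2 change was 1.03 ± 0.09 with an adjusted p of 8.56e-04, and it was past the threshold in all 15 other settings. Fut4 was above the background scale on 4 of 6 arrays, 1 of them wild-type, and its change ran from 0.74 to 1.18 over the settings. Galnt18, of the family that starts O-glycans, was at 761 ± 43.5 in transgenic and 525 ± 47.8 in wild-type prostates (0.52 ± 0.09, adjusted p 0.0392). Gcnt4, a core 2 branching enzyme gene, was at 82.3 ± 14.8 in transgenic and 44.9 ± 3.95 in wild-type prostates (0.68 ± 0.12, adjusted p 0.0387), with 1 of 6 arrays above the background scale. Galnt18 kept its call in 1 of the 6 leave-one-out fits, that without wild-type replicate 3, and Gcnt4 in that without transgenic replicate 1, and otherwise adjusted p reached 0.211 for Galnt18 and 0.164 for Gcnt4.

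Of 27 mucous cell genes 0 were past the threshold. At an unadjusted p under 0.05 in limma, 6 of the 27 were lower and 0 higher in transgenic mice. That was a larger share than the 5.27% of all genes lower at that cut, and no test over the list was run. The share over all genes takes in dim ones, while 18 of the 27 were above the background scale on every array. Agr2, a disulfide isomerase needed for mucin folding, was at 2339 ± 77.0 in transgenic and 2890.0 ± 156 in wild-type prostates (−0.30 ± 0.08, adjusted p 0.156), and Spdef, a transcription factor of prostate luminal and goblet cells, at 365 ± 11.9 and 464 ± 43.4 (−0.33 ± 0.09, adjusted p 0.18). Among 16 relatives of Dmbt1 with scavenger receptor cysteine-rich domains 0 were past the threshold and 2 had an unadjusted p under 0.05, Lgals3bp (−0.33 ± 0.09, adjusted p 0.175) and the macrophage receptor gene Msr1 (−0.47 ± 0.13, adjusted p 0.206). Of 19 partners and shedding proteases of membrane mucins 0 were past the threshold, and their median log2 change was 0.19. At an unadjusted p under 0.05 in limma, 8 of the 19 were higher and 0 lower. This share was also larger than the one over all genes, 6.91% higher, and was not tested. Of the 19, 17 were above the background scale on every array, while the share over all genes takes in dim ones. The membrane protease gene Mmp14 was nearest, at 427 ± 40.4 in transgenic and 287 ± 26.2 in wild-type prostates (0.55 ± 0.10, adjusted p 0.0502), followed by the scaffold gene Slc9a3r1 (0.26 ± 0.08, adjusted p 0.277).

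Among 26 other mucosal defence genes, Reg3b, which encodes an antibacterial lectin, rose, 0 fell, and 4 had an unadjusted p under 0.05. Its intensities were 293, 145 and 234 in transgenic mice, against 22.1, 23.2 and 33.3 in wild-type mice. The transgenic mice differed widely among themselves but none overlapped the wild-type mice, whose values were under the background scale. The log2 change was 2.47 ± 0.23 with an adjusted p of 0.0014, and it was 3.01 with an added constant of 1 and 1.64 with 64.

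**Figure D5:**
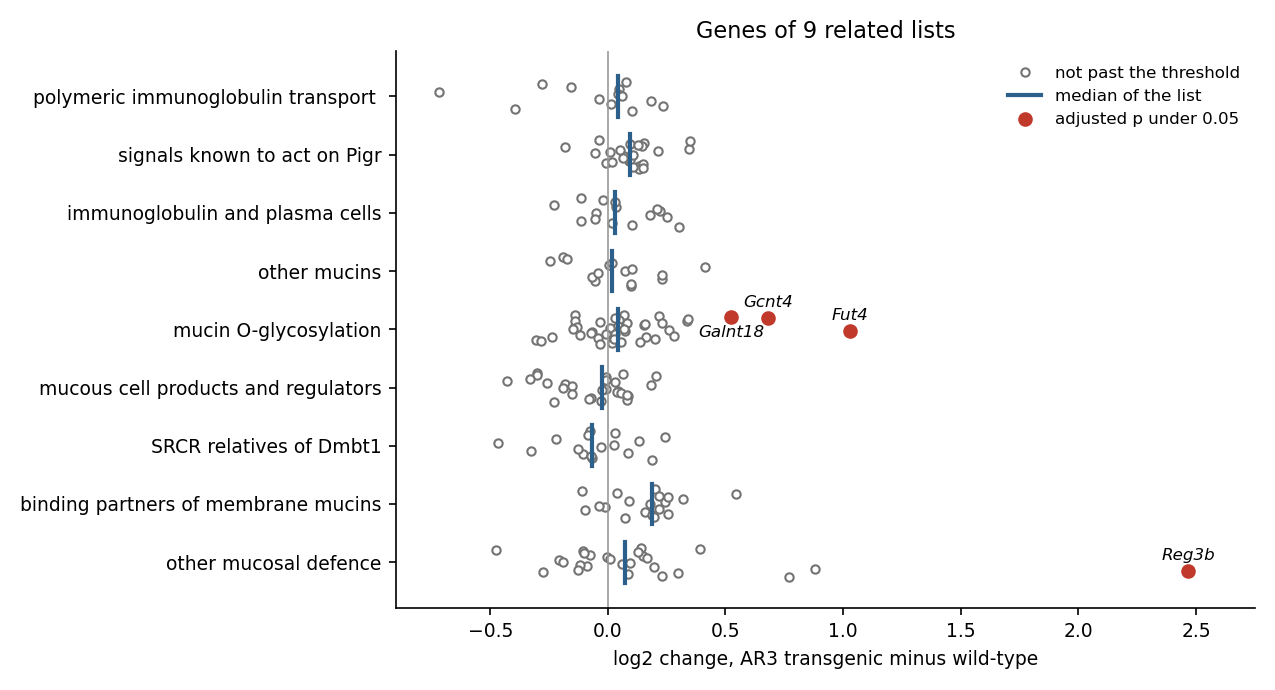
Log2 change (AR3 transgenic minus wild-type) of every measured gene of the 9 lists, 1 circle per gene, with a bar at each list's median; filled circles have an adjusted p under 0.05. Fut4, Gcnt4, Galnt18 and Reg3b are the 4 past the threshold, all higher in transgenic prostates, and the medians lie between −0.07 and 0.19.

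Markers of cells that can bring mucosal or immune genes were measured on the same arrays. The 8 macrophage markers summed to 692 to 800.0 in transgenic and 514 to 697 in wild-type mice, with 0 of 8 past the threshold and 2 at an unadjusted p under 0.05. The 9 seminal vesicle markers summed to 1762 to 9102 in transgenic and 839.9 to 4945 in wild-type mice, with 1 lower and 0 higher. The lower one was Svs3a (−1.43 ± 0.22, adjusted p 0.0192), whose call was lost without transgenic replicate 1 or 3 or wild-type replicate 2, at adjusted p of 0.0819, 0.107 and 0.103. Pate4, also of that list, had 1782, 1203 and 3027 in transgenic mice, against 942, 25.3 and 36.7 in wild-type mice (3.88 ± 1.09, adjusted p 0.201), with no overlap between the genotypes. The 8 fibroblast markers summed to 5742 to 8133 in transgenic and 4381 to 6142 in wild-type mice, with 0 past the threshold and 4 at an unadjusted p under 0.05, all with higher values. The part of these 3 cell types in the higher Dmbt1 and Reg3b levels was not tested.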

How the data were processed

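RNA from dissected prostates was labelled with a whole-transcript kit for Affymetrix arrays, per the labels' protocols. The deposited table holds 1 intensity per probe set and array, on a linear scale from 0.87 to 21952, as read from its values. How the authors summarised and normalized it is not given in the sources used here, and no further normalization was applied. Of 35512 rows, 6568 with identifiers below the gene-level range were treated as control features, which the platform's numbering is known to place there, leaving 28944, of which 21789 had 1 gene symbol in the platform annotation. Per gene the probe set with the highest mean stood for it.

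log2(intensity + 16) was tested with lmFit and eBayes of limma 3.58.1 (R 4.3.3), AR3 transgenic against wild-type without covariates, as a two-sided test with p-values adjusted by Benjamini-Hochberg across those 28944, and the fit was tested on simulated data. All adjusted p-values are from this fit. With 3 against 3 arrays an exact permutation test cannot go below 0.1 and was not used. The number of arrays limits precision. No array batch is given.

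The 8 genes and the lists were chosen with earlier results of these data known. Named were the 8 genes, each list's members past the threshold (up to 6, otherwise the 2 with the smallest p), the 5 genes nearest to Pigr in pattern, and measured neighbours of members past the threshold. Alternatives were other added constants, median centring, quantile normalization, a table without its dimmest 40%, single arrays left out, an intensity trend, array weights, a mean over probe sets and the mouse number as a block. Sequences and gene positions are from RefSeq, GRCm38.p6.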

Additional observations from a re-analysis of the deposited data

How the results depend on the processing

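Pigr and Dmbt1 kept their direction and their side of the threshold in all 15 other settings, as did Fut4 and Reg3b. Leaving out the dimmest probe sets removes Muc1, Muc3, Muc4 and Muc16 by its construction, so these 4 have no value there and 1 member was higher. Mouse numbers gave no sign of pairing, though 3 correlations cannot exclude it. Deviations of same-numbered transgenic and wild-type mice from their group means correlated at −0.044, 0.046 and −0.16. With the number as a replicate block, Muc3 kept 0.76 but not its call (adjusted p 0.0977), 1 member was higher, 2 list genes were higher and 250 probe sets were called in place of 425. All probe set counts with single arrays left out ran from 234 to 519, with 234 and 248 without transgenic replicates 3 and 2 and 254 without wild-type replicate 2. They reached 678 with robust variances along an intensity trend and 1202 with array weights. With single arrays left out, 1 to 2 members were higher, Muc3 ran from 0.68 to 0.87, Muc1 from −0.10 to 0.056, Muc13 from −0.057 to 0.13 and Muc16 from −0.057 to 0.088. Signs of dim members also turned with quantile normalization (Muc1 0.0061, Muc13 −0.013), median centring (Muc13 −0.016, Muc16 −0.0057) and array weights (Muc16 −0.048). Of the list genes, 2 were higher with an added constant of 1 and 8 with array weights, and 2 to 5 with single arrays left out. Lower list genes numbered 2 with an added constant of 64, with quantile normalization or without the dimmest probe sets, 3 with median centring, 4 with the intensity trend, 8 with array weights and 0 to 2 with single arrays left out. Among neighbouring and check genes the sign of Htra1 (−0.045), Trim56 (−0.014) and Svs2 (1.13) turned with array weights. With single arrays left out Fcmr ran from −0.011 to 0.24, Htra1 from −0.044 to 0.12 and Svs2 from −1.42 to 1.49. The causes of these shifts were not tested. Dim signals, under the background scale, limit what can be said of Muc1, Muc3, Muc4 and Muc16.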

Other observations

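Genes singled out after their values were seen add to the surroundings of Dmbt1 and of the mucins. Cdcp3, a gene for a protein with CUB domains, a domain that Dmbt1 also carries, lies on the same side of Dmbt1 as 4933402N03Rik. It was bright, with intensities of 5530.1, 5758 and 5532 in transgenic mice, against 6786, 7681 and 7707 in wild-type mice. The genotypes did not overlap, the log2 change was −0.40 ± 0.08 and the adjusted p 0.0774 in limma, and 6 of 15 other settings called it. Cuzd1, a further CUB domain gene in the same stretch, was under the background scale on all arrays, at 43.9 ± 4.87 in transgenic and 37.2 ± 2.59 in wild-type prostates.

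Muc19, a gel-forming mucin gene of salivary glands, had 2 probe sets. One gave 131, 94.5 and 84.9 in transgenic mice, against 57.8, 65.6 and 99.4 in wild-type mice, with an adjusted p of 0.461. The other gave 126, 99.4 and 90.8 in transgenic mice, against 53.4, 64.6 and 88.8 in wild-type mice, a log2 change of 0.53 ± 0.17 at an adjusted p of 0.263. In the first the genotypes overlapped, and in the second all 3 transgenic values lay above the wild-type ones.

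Defb1, the epithelial defensin of the mucosal defence list, was among its brighter genes, at 2553 ± 343 in transgenic and 3550.4 ± 385 in wild-type prostates, with an unadjusted p of 0.00521 and an adjusted p of 0.163. All 3 transgenic values were below the wild-type ones.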
